A study of Mus musculus with 28 samples.

Results

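Neutrophils of the mouse arteriovenous fistula (AVF) were picked from 3 single-cell RNA libraries by their transcripts, and 811 of 16893 barcodes qualified. A barcode stands for a captured cell, and a UMI (unique molecular identifier) for a captured RNA molecule. Barcodes were kept when they held 200 to 6000 genes and at most 10% mitochondrial UMIs. A kept barcode was called a neutrophil when S100a8 and S100a9 together made up at least 1.5% of its UMIs and when it held at least 2 UMIs of Csf3r, G0s2, Retnlg, and Cxcr2. It also had to have less than 0.2% of UMIs from C1qa, C1qb, and C1qc (macrophage genes) and less than 1.5% from Col1a1, Col1a2, Col3a1, and Dcn (fibroblast genes). The levels of these genes among the neutrophils are therefore a description and not a finding.

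The study followed the jugular vein after it was joined, end to side, to the carotid artery of male and female C57BL/6 mice. Every animal, the source of the control veins included, had first undergone subtotal nephrectomy, and the controls were contralateral jugular veins of operated mice rather than veins of untouched animals. Bulk libraries came from individual vessels: 7 contralateral veins, 8 early AVFs labelled day 3, 5 mid AVFs labelled day 10, and 5 late AVFs labelled day 21. Single-cell RNA sequencing used 1 library of contralateral veins, 1 of early AVFs, and 1 of late AVFs, each from a pool of vessels of both sexes that was digested with enzymes and cleared of red blood cells. According to the study's methods, the early and late single-cell vessels were harvested somewhat later than the bulk vessels of the same name, and the age of the mice was not given in the sources used here. With 1 pooled library a condition there is no replicate error for the single-cell values, so no test was made between these libraries, and their 95% intervals cover counting error only. Neutrophils lodged in the vessel wall and neutrophils of blood left in the lumen cannot be told apart in these libraries.

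Neutrophils are short-lived granulocytes made in the bone marrow, and they are among the first leukocytes to enter injured tissue. During their development they fill primary (azurophil), secondary (specific), and tertiary (gelatinase) granules in turn, and most of the granule genes are switched off before the cell enters the blood. Mature cells are guided by the chemokine receptor Cxcr2, depend on the growth factor receptor Csf3r, and on activation secrete chemokines and interleukin-1.

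Neutrophils were rare in contralateral veins, abundant in early AVFs, and intermediate in late AVFs. In contralateral veins they made up 34 of 6319 kept barcodes, or 0.538% (exact binomial 95% interval, 0.373 to 0.751%). In early AVFs they made up 591 of 4753, or 12.4% (11.5 to 13.4%). In late AVFs they made up 186 of 5821, or 3.20% (2.76 to 3.68%). The early share was 23.1 times that of contralateral veins (16.4 to 33.7) and the late share 5.94 times (4.10 to 8.83), while the early share exceeded the late share 3.89-fold. The intervals of the 3 libraries did not overlap. A share of barcodes also moves with the yield of every other cell type, so the shares were also taken over leukocytes, meaning barcodes with at least 1 UMI of the pan-leukocyte gene Ptprc or meeting the neutrophil rule. On that basis neutrophils were 1.93% in contralateral veins (1.34 to 2.69%), 18.8% in early AVFs (17.4 to 20.2%), and 6.21% in late AVFs (5.37 to 7.14%). The order was the same, and the early share was 9.71 times that of contralateral veins.

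**Figure D1:**
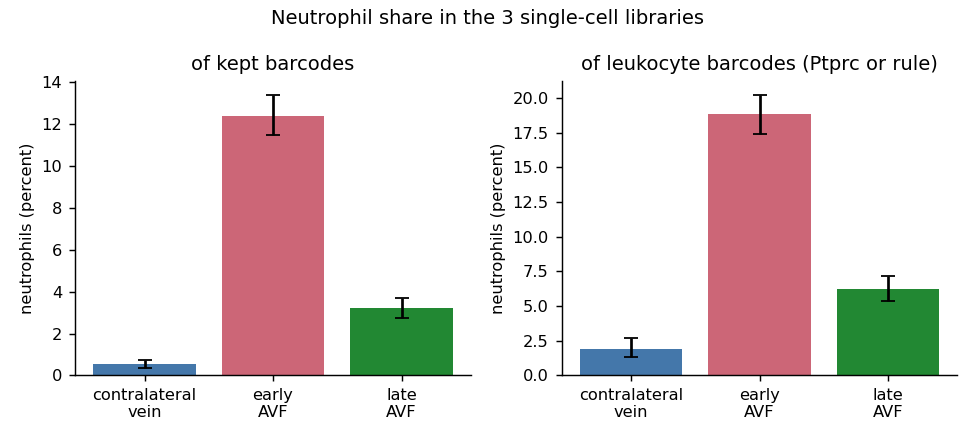
Share of neutrophils in the 3 single-cell libraries, as percent of kept barcodes and as percent of leukocyte barcodes (y axes, linear from 0), with exact binomial 95% intervals as error bars. Early AVFs stand highest on both scales, at 12.4% of kept and 18.8% of leukocyte barcodes.

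The neutrophils of the 3 libraries were alike in depth although the libraries were not. Their median UMI counts were 3640 in contralateral veins, 3605 in early AVFs, and 3560 in late AVFs, while the medians of all kept barcodes were 2751, 8951, and 15425. Their median gene counts were 1033, 1112, and 1154, and their median mitochondrial shares were 0.934%, 0.842%, and 0.524%. S100a8 and S100a9, which encode calprotectin, an abundant cytosolic protein of these cells, were the base of the rule and took a median 5.15%, 7.08%, and 5.42% of their UMIs. T cells, a class that should lack them (at least 2 UMIs of Cd3d, Cd3e, and Cd3g, with median depths of 5370, 5795, and 6728 UMIs), held 54.8, 164, and 34.6 CPM of the pair (UMIs of a gene per 1000000 UMIs, summed over the cells of a class), against 92604, 82676, and 68172 in neutrophils.

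Some barcodes lay close to the S100 threshold, in contralateral veins beside only 34 neutrophils. Just inside it, with 1.5 to 2% S100 UMIs, lay 5, 33, and 23 cells in contralateral veins, early AVFs, and late AVFs, with medians of 30.0, 12.0, and 9.00 marker UMIs. Just outside, with 1 to 1.5%, lay 5, 32, and 13 barcodes, with medians of 10.0, 7.00, and 6.00 marker UMIs. A further 65, 209, and 125 kept barcodes met every condition except S100, which was under 1% there, and were not counted as neutrophils. No neutrophil barcode was shared between libraries, and 5 or 6 kept barcodes were shared between each pair of libraries. Scrublet, a doublet caller, marked none of the neutrophils, but it marked only 0, 2, and 120 kept barcodes in the 3 libraries and so had not worked in contralateral veins and early AVFs. Barcodes were therefore not filtered on it. Among the neutrophils, 1, 29, and 3 held over 3 times the median UMI count.

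Genes that the rule did not use set these cells apart as neutrophils in all 3 libraries. Over 744 genes with at least 20 UMIs in the neutrophils of each library, genes were ordered by their smallest ratio of neutrophils to all other kept barcodes, which, like any comparison of cells chosen by their transcripts, is a description. The stefin gene Stfa2l1, a protease inhibitor gene with near-identical copies that share reads, led with a smallest ratio of 126, followed by its relative Cstdc4 at 105 and Ly6g, the mouse neutrophil surface antigen, at 104. Ly6g passed the minimum in contralateral veins through 3 granule-rich cells described below, outside which lay 2 of its 24 UMIs. The next were Mirt2, Asprv1, Il1f9, which encodes the cytokine interleukin-36 gamma, Wfdc21, and the histamine-making enzyme gene Hdc. Pglyrp1, a bactericidal protein of granules, had a smallest ratio of 50, and the activating receptor gene Trem1 had one of 33.2.

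Transcripts of other cell types were not absent from the neutrophils. Of 4 eosinophil genes the granule genes Prg2 and Epx had 0 UMIs in every library, while Siglecf had 0, 36, and 10 and Ccr3 0, 16, and 1, so that the list stood at 0, 19.3, and 14.7 CPM where all AVF kept barcodes had 2.62 and 1.90. T cell markers had 1, 44, and 27 UMIs in all. Macrophage markers stood at 526, 1428, and 1196 CPM and fibroblast markers at 1254, 1941, and 2604, but the rule itself capped the C1q and collagen genes of these lists. Platelet markers in neutrophils of contralateral veins stood at 749 CPM against 715 in all kept barcodes, and mast cell and basophil markers at 28.8 against 19.7. Hemoglobin and other erythroid transcripts were at 30589 CPM in contralateral vein neutrophils against 3972 in early and 8.04 in late ones. In all kept barcodes they were at 98814, 10181, and 227, so they moved with the library, and their part in the ratios given here was not tested.

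Several mature neutrophil genes held similar levels in the 3 libraries. Of 17 identity genes above the minimum of 20 UMIs and 100 CPM in the higher library, 2 were at least 2-fold higher and 4 that much lower in the early library than in contralateral veins, 3 and 4 in the late one, and none of 15 differed that much between late and early AVFs. Of all genes 18.4% were higher and 9.38% lower in the early library, and 25.2% and 7.59% in the late one. Between late and early AVFs the shares of all genes were 4.63% and 1.66%. Identity genes were thus lower than in contralateral veins more often than all genes were. Stfa2l1 stood at 231, 1383, and 753 CPM and Wfdc21 at 1809, 608, and 518. Without the granule-rich cells described below Wfdc21 stood at 698, 543, and 518 CPM. Slpi, the secretory leukocyte protease inhibitor, had 3581 CPM in neutrophils of contralateral veins, 4047 in early AVFs, and 2983 in late AVFs. Mxd1, a Myc antagonist of mature cells, had 2796, 3160, and 3220, and the C-type lectin receptor gene Clec4d had 2140, 2533, and 2591. Cxcr4, a chemokine receptor that retains neutrophils in the marrow and marks aged cells, was also alike, at 757, 659, and 734 CPM. After each cell was thinned to 500 UMIs, 14.7%, 11%, and 15.6% of neutrophils had a Cxcr2 UMI (58.8%, 54.0%, and 53.2% unthinned), against 0%, 0%, and 0.209% of T cells (1.89%, 0.752%, and 0.628%). Primary granule genes, which belong to promyelocytes, were nearly silent: Mpo had 1, 1, and 0 UMIs in all neutrophils of the 3 libraries, and Elane and Ctsg had 0. Of the cell division genes, Mki67 had 1, 17, and 1 UMIs and Top2a 0, 11, and 2.

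Neutrophil genes that differed between libraries were counted by a rule of size, at least 2-fold, among genes with at least 20 UMIs and 100 CPM in the higher library. Of 156 listed neutrophil genes, 115 reached that minimum in the comparison of early AVFs with contralateral veins; 23 (20%) were higher and 20 (17.4%) lower, where over all 1280 genes the shares were 18.4% and 9.38%. For late AVFs against contralateral veins, 33 of 124 (26.6%) were higher and 22 (17.7%) lower, where all 1410 genes gave 25.2% and 7.59%. For late against early AVFs, 11 of 120 (9.17%) were higher and 8 (6.67%) lower, against 4.63% and 1.66% of all 1447 genes. The first 2 comparisons share the contralateral vein library, whose neutrophils numbered only 34. The shares of listed genes that were higher lay near those of all genes in these 2 comparisons, and above them for late against early AVFs. The shares that were lower lay above those of all genes in every comparison. Without the cell with most UMIs of each gene 35 listed genes rather than 23 were higher in early AVFs, and those lower in late than in early AVFs numbered 5 by the mean of each cell's share and 2 among cells of up to 3 times the median UMIs.

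Secondary granule genes gave the widest differences. These genes encode antimicrobial proteins that are made in myelocytes and metamyelocytes, precursors that normally stay in the marrow. Camp, the cathelicidin precursor, had 6874 CPM in contralateral vein neutrophils, 512 in early AVFs, and 2.68 in late AVFs, the last from 2 UMIs. Ngp (neutrophilic granule protein) had 5404, 508, and 2.68, and Ltf (lactoferrin) had 1751, 89.2, and 18.8. Early AVFs were thus 13.4-fold (12.4 to 14.6), 10.6-fold (9.72 to 11.6), and 19.6-fold (16.4 to 23.6) lower in Camp, Ngp, and Ltf. Of 6 secondary granule genes above the minimum, 5 were lower in early AVFs (median log2 ratio -3.54, against 0.28 over all genes), 5 were lower in late AVFs than in contralateral veins, and all 4 above the minimum were lower in late than in early AVFs. Over all genes the lower shares in these comparisons were 9.38%, 7.59%, and 1.66%.

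These averages rested on 5 cells. Among contralateral vein neutrophils 3 of 34 (8.82%, 1.86 to 23.7%) held at least 20 UMIs of Ltf, Camp, and Ngp, a limit set after the values were seen, and among early AVF neutrophils 2 of 591 (0.338%, 0.0410 to 1.22%). No late AVF neutrophil reached it, 0 of 186, which allows a share of up to 1.61% by the limit of 3 counts and 1.96% by the exact binomial interval. The 3 contralateral vein cells held 1944 of the 1947 UMIs of these genes (99.8%) and the 2 early cells held 2940 of 2982 (98.6%). The next highest cell had 2, 4, and 3 UMIs in contralateral veins, early AVFs, and late AVFs, so the gap between the 5 cells and all other neutrophils was wide. After thinning to 500 UMIs, 8.82%, 1.02%, and 0.538% of neutrophils had at least 1 UMI of these genes, against 14.7%, 5.75%, and 7.53% unthinned, and no thinned T cell had any (0.472%, 2.26%, and 0.209% unthinned). Whether late AVFs had fewer such cells than early AVFs was not detectable at this number of cells.

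The 5 cells differed from other neutrophils beyond the genes that picked them. In contralateral veins they held 8387, 7870, and 684 UMIs, of which 11.5%, 12.1%, and 3.65% came from Ltf, Camp, and Ngp, and in early AVFs they held 11945 and 13010 UMIs, with 13.5% and 10.2%. Chil3, a chitinase-like protein of immature neutrophils and of monocytes and macrophages, had 71, 89, and 0 UMIs in the contralateral vein cells and 121 and 60 in the early cells. Lcn2 (lipocalin-2, which binds bacterial siderophores) had 237, 252, 7, 240, and 256 in the same order. Elane and Mpo were at 0 in all 5, and Mki67 had at most 1 UMI in any. Il1b, which encodes interleukin-1 beta, had 0 UMIs in the 3 contralateral vein cells and 1 in the early pair. Among the remaining neutrophils it was found in 31 of 31 cells of contralateral veins, 571 of 589 of early AVFs, and 171 of 186 of late AVFs. Cxcl2, a chemokine that attracts neutrophils, was at 0 in the 3 contralateral vein cells and had 2 and 160 UMIs in the early cells, while 27 of 31, 587 of 589, and 184 of 186 of the others held it.

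**Figure D2:**
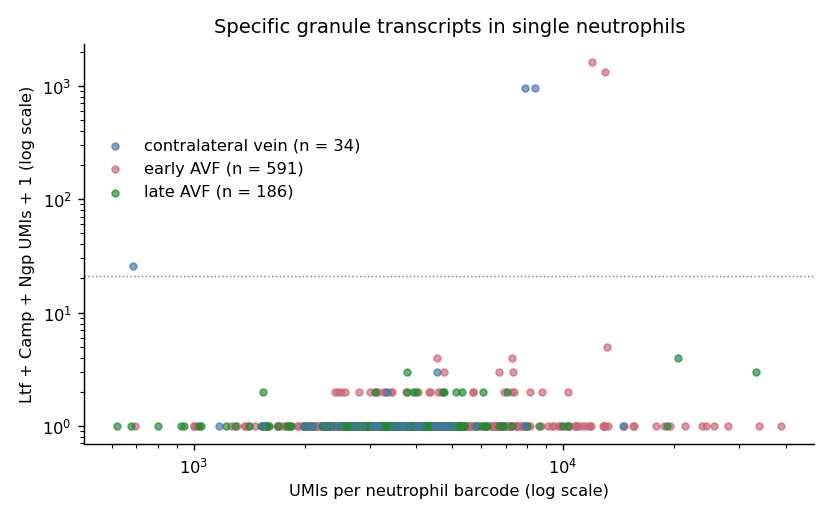
Each point is 1 neutrophil, by its total UMIs (x axis, log scale) and its UMIs of Ltf, Camp, and Ngp plus 1 (y axis, log scale), with the 3 libraries in different colors. The dotted line marks 20 UMIs; 3 cells of contralateral veins, 2 of early AVFs, and none of late AVFs lie above it, far from the rest.

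Leaving the 5 cells out changed which granule genes differed. Without them Lcn2 in contralateral veins was at 755 CPM (609 to 926), in early AVFs at 1470 (1424 to 1517), and in late AVFs at 713 (653 to 776), so its direction between contralateral veins and early AVFs turned from lower to higher. Ly6g, which over all neutrophils was 11.1-fold lower in early than in contralateral vein cells, had 16.4, 12.8, and 38.8 CPM without them. Retnlg, a resistin-like gene and part of the rule, kept its order, with 3915 (3572 to 4283), 1030 (992 to 1070), and 1268 (1189 to 1352) CPM. The share of neutrophils with a Retnlg UMI after thinning was 70.6% in contralateral veins, 26.9% in early AVFs, and 29.6% in late AVFs (91.2%, 58.4%, and 51.1% unthinned), against at most 0.752% of T cells.

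Because the UMIs of Camp, Ngp, and Ltf lay in the same few cells, and Chil3 was high in 4 of these 5 although 62 of its 243 early UMIs lay in other neutrophils, the 250 bases before the start of each gene are shown (RefSeq, GRCm38.p6, written 5′ to 3′ on the gene's strand). The Camp bases are chr9:109849457-109849706 on the minus strand, those of Ngp chr9:110419558-110419807 on the plus strand, those of Ltf chr9:111019042-111019291 on the plus strand, and those of Chil3 chr3:106167565-106167814 on the minus strand. Capitals mark matches to TTNCNNAA or to its reverse complement TTNNGNAA, letters at the core of sites of the C/EBP family, to which C/EBP epsilon, a factor needed for secondary granules, belongs.
Camp: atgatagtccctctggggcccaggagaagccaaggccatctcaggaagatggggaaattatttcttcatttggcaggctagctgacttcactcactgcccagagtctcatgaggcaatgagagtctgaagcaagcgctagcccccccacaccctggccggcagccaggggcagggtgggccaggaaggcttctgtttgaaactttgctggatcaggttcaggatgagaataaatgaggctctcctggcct
Ngp: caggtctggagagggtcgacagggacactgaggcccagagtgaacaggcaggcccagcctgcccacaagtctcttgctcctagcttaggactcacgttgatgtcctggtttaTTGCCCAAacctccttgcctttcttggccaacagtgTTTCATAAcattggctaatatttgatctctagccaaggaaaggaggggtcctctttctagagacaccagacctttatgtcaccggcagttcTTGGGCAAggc
Ltf: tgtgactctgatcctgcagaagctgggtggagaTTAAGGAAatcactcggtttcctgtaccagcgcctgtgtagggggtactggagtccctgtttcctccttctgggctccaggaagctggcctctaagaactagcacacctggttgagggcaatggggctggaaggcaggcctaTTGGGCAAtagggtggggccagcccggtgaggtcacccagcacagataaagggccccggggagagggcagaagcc
Chil3: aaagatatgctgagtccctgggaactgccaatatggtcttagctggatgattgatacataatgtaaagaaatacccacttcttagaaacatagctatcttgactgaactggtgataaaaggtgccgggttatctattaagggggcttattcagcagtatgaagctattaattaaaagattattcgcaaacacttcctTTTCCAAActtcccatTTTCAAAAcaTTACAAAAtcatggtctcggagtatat
Ngp held 3 matches, starting 138, 102, and 11 bases before the gene, Ltf held 2, at 217 and 75 bases, and Chil3 held 3, at 53, 37, and 27 bases. Camp held none within these bases. Of all 32851 promoters of the same length, 12104 (36.8%) held at least 1 match, so a match is common and is a description, not a site. Cebpe, the gene of C/EBP epsilon, had 7, 13, and 2 UMIs in all neutrophils of the 3 libraries.

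Transcripts of the chemokine gene Cxcl2 and the cytokine gene Il1b were abundant in the neutrophils. Cxcl2 stood at 39863 CPM in contralateral veins, 36862 in early AVFs, and 24568 in late AVFs, of the order of S100a8 (38869, 34001, and 29162). Il1b stood at 10168, 9142, and 5045. In single cells Il1b took a median 0.882% of a neutrophil's UMIs in contralateral veins, 0.618% in early AVFs, and 0.333% in late AVFs, with interquartile ranges of 0.473 to 1.31%, 0.219 to 1.26%, and 0.0811 to 0.767% that overlapped. Thinned to 500 UMIs, 88.2%, 80.5%, and 69.9% of neutrophils held Il1b (91.2%, 96.8%, and 91.9% unthinned) and 79.4%, 92.7%, and 96.8% held Cxcl2 (79.4%, 99.7%, and 98.9% unthinned). Thinned T cells held Il1b in 0.472%, 3.76%, and 1.46% and Cxcl2 in 3.77%, 16.5%, and 17.8%. Unthinned T cells, which were deeper than the neutrophils, held Il1b in 0.943%, 25.6%, and 15.1% and Cxcl2 in 22.6%, 82.7%, and 86.4%, so Cxcl2 in AVFs was widespread in a class that should hold little of it.

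Several chemokines and cytokines were higher in early AVF neutrophils. Ccl3 and Ccl4 encode macrophage inflammatory proteins, which attract monocytes and T cells. Ccl3 in contralateral veins was at 4302 CPM and in early AVFs at 8851, a 2.06-fold ratio (1.90 to 2.24), with 4278 in late AVFs, and Ccl4 at 1773 and 5466, a 3.08-fold ratio (2.72 to 3.51). T cells of the same libraries gave ratios of 1.14 and 1.15. Tnf, which encodes tumor necrosis factor, was at 252, 1020, and 859 in contralateral veins, early AVFs, and late AVFs, an early ratio of 4.05 (2.90 to 5.82) where T cells gave 0.701. Il1rn, the natural inhibitor of interleukin-1 signaling, had a ratio of 1.91 (1.56 to 2.36) and was below the 2-fold limit. Cxcl3 had a ratio of 7.58 (4.51 to 13.9), but 1 cell held 78.6% of its 14 UMIs in contralateral veins. Cxcl1 rested on 1 UMI in contralateral veins, a ratio of 60.4 (10.8 to 2386), and its level also differed in T cells, 14.1-fold. Of 15 listed cytokine genes above the minimum, 7 were higher and 2 lower in early AVFs, with a median log2 ratio of 0.94 against 0.28 over all genes, of which 18.4% were higher and 9.38% lower. In late AVFs 5 of 16 were higher and 4 lower, with a median of 0.62 against 0.40 over all genes, of which 25.2% were higher and 7.59% lower.

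Osm ran the other way. It encodes oncostatin M, a cytokine that acts on fibroblasts and endothelium, and stood at 1881 CPM in contralateral vein neutrophils against 284 in early and 279 in late AVFs, 6.61-fold lower in early AVFs (5.72 to 7.62) with a T cell ratio of 1.03. Ccl6 was 2.02-fold lower in early AVFs. Between the AVFs, Il1b was 1.81-fold (1.75 to 1.88), Ccl3 2.07-fold (1.99 to 2.15), and Ptgs2, the prostaglandin synthase, 2.06-fold lower in late than in early neutrophils. For Il1b the late-to-early ratio was 0.552 in neutrophils, 0.70 in other myeloid cells, a class with at least 3 UMIs of Lyz2, Ccr2, Ly6c2, Plac8, Csf1r, and Cd68, and 0.158 in T cells. For Ccl3 it was 0.483 in neutrophils and 0.333 in other myeloid cells but 1.58 in C1q macrophages, the class with at least 0.2% C1q UMIs. So macrophages and neutrophils of the late library differed in direction for Ccl3.

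Most listed genes of cell survival and death were higher in neutrophils of both AVF libraries, and of 6 adhesion genes above the minimum only Icam1 was, in each. The lifespan of a neutrophil depends on proteins of the Bcl2 family and on Cflar, an inhibitor of caspase-8. Of 6 such genes above the minimum, a promoter of cell death among them, 5 were at least 2-fold higher in early and 5 in late AVFs than in contralateral veins, with median log2 ratios of 3.46 and 3.63, where 18.4% and 25.2% of all genes were that much higher. Several rested on few contralateral vein UMIs: Bcl2a1b had 2 (ratio 44.3, 12.2 to 366) and Cflar 3 (15.5, 5.29 to 75.4), where T cells gave 1.92 and 1.36. Bcl2a1b is 1 of several near-identical copies whose reads may be shared, and other myeloid cells also gave a high ratio for it, 11.6. The list counted more than 1 of these copies, so the 5 genes are not independent. Bcl2l11, which encodes Bim, a promoter of cell death, had a ratio of 3.56 (2.44 to 5.42), while Mcl1, needed for neutrophil survival, had 1.07. Icam1, an adhesion molecule that neutrophils display after activation, stood at 28.8, 362, and 340 CPM, a ratio of 12.6 (4.89 to 46.2) in early AVFs where T cells gave 1.10 and other myeloid cells 0.913. After thinning, 0%, 11%, and 9.68% of neutrophils held an Icam1 UMI (11.8%, 39.1%, and 40.9% unthinned), and 5.66%, 7.52%, and 6.69% of T cells, which also make it, did (29.7%, 46.6%, and 48.5%). Clec4e (Mincle, a receptor for dead cells and fungi) was 2.02-fold higher in early AVFs (1.76 to 2.33).

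**Figure D3:**
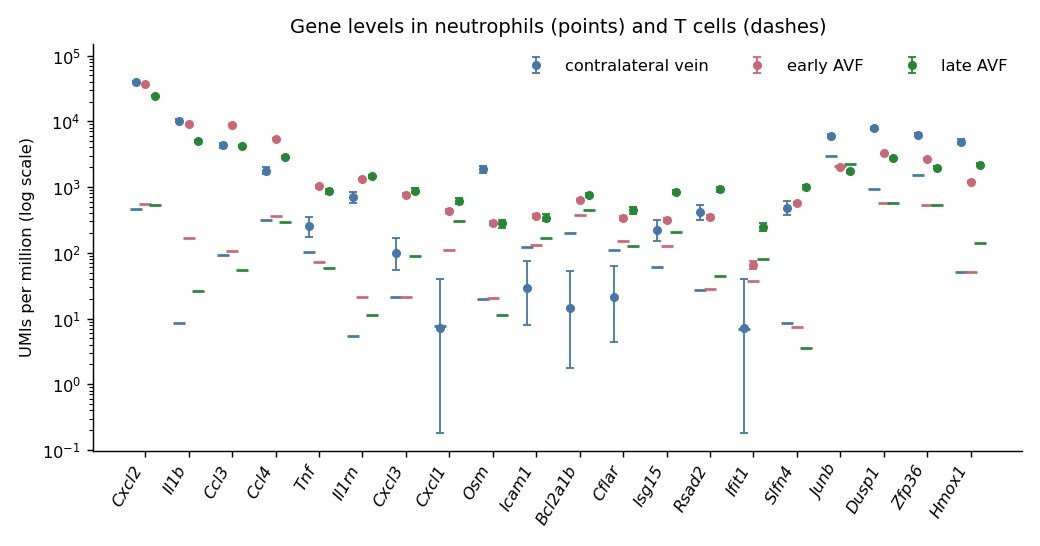
Levels of 20 genes in neutrophils of the 3 libraries (points, CPM, drawn as UMIs per 1000000 on a log axis, with exact Poisson 95% intervals) and in T cells of the same libraries (dashes). Ccl3, Ccl4, Tnf, and Icam1 are higher in neutrophils of early AVFs than of contralateral veins, Osm, Junb, Dusp1, and Hmox1 are lower, and Isg15, Ifit1, and Rsad2 are highest in late AVFs.

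Immediate early genes and Hmox1 were higher in neutrophils of contralateral veins. Fos, Junb, and Egr1 encode transcription factors that are induced within minutes of stimulation. Junb was 2.97-fold, Fos 3.78-fold, Egr1 3.26-fold, and Dusp1, a phosphatase that ends kinase signals, 2.38-fold lower in early AVF neutrophils. T cells were also lower in these genes, with early-to-contralateral ratios of 0.694, 0.566, 0.402, and 0.619, and Zfp36, which destabilizes cytokine mRNA, had ratios of 0.428 in neutrophils and 0.357 in T cells. So these genes moved with the library in a cell type other than neutrophils, and the part of the library in the result was not tested. Hmox1, the enzyme that breaks down heme, stood at 4929, 1174, and 2189 CPM in contralateral veins, early AVFs, and late AVFs. It was 4.2-fold lower in early AVF neutrophils (3.86 to 4.56), where T cells gave a ratio of 0.999, other myeloid cells 2.68, and C1q macrophages 0.451. None of 15 listed transcription factors above the minimum was 2-fold higher in early AVFs and 7 were 2-fold lower, with a median log2 ratio of -0.98, where 18.4% of all genes were higher and 9.38% lower, with a median of 0.28.

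Interferon-stimulated genes made up 9 of the 11 listed genes that were higher in late than in early AVF neutrophils. Cells make their products, which block viral RNA and protein synthesis, on sensing type I interferon. Of 14 listed genes, 12 reached the minimum and 9 were at least 2-fold higher in late AVFs, none lower, with a median log2 ratio of 1.44. Of all genes 4.63% were that much higher and 1.66% lower, with a median of 0.13. Isg15, a ubiquitin-like modifier, stood at 223, 313, and 840 CPM in contralateral veins, early AVFs, and late AVFs, a late-to-early ratio of 2.68 (2.41 to 2.98). Ifit1, which binds foreign RNA, stood at 7.21, 65.1, and 246 (3.79, 3.06 to 4.69), and Rsad2 (viperin, an antiviral enzyme) at 411, 355, and 920 (2.59, 2.35 to 2.87). Irf7, the factor that amplifies the interferon response, had a ratio of 2.97. Other cells gave lower ratios for these genes: T cells 1.60, 2.20, 1.56, and 0.667, and other myeloid cells 1.00, 1.04, 0.914, and 1.08, for Isg15, Ifit1, Rsad2, and Irf7. C1q macrophages gave 1.64, 2.52, and 2.26 for the first 3. Ifitm3 and Ifitm1, membrane proteins that restrict virus entry, did not follow, with ratios of 1.19 and 0.776.

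The interferon difference was also one of the number of positive cells. With each cell thinned to 500 UMIs, 17.6% of contralateral vein neutrophils (6.76 to 34.5%), 17.3% of early (14.3 to 20.6%), and 33.9% of late AVF neutrophils (27.1 to 41.2%) held a UMI of Isg15, Ifit1, Ifit3, or Rsad2, against 50%, 44.0%, and 66.7% unthinned. T cells held 4.72%, 6.77%, and 9.62% thinned and 28.3%, 37.6%, and 48.7% unthinned. Within the late library, 86 neutrophils with at least 2 UMIs of these genes were set beside 62 with none, a division made after their values were seen. Slfn4, a schlafen gene of myeloid cells that interferon induces, stood at 1550 CPM in the first and 265 in the second, 5.84-fold higher (4.45 to 7.80), and Irf7 was 3.66-fold higher (1.94 to 7.64). Tnf was lower in the interferon-positive cells, at 0.332 of the level (0.279 to 0.396), while Il1b was at 0.869. Within the early library, 169 positive and 331 negative neutrophils gave 2.50-fold for Slfn4 (2.24 to 2.79), 4.82-fold for Irf7, 4.66-fold for Cxcl10 (3.61 to 6.05), and 1.05-fold for Tnf. In contralateral veins, 10 positive and 17 negative neutrophils gave 1.24-fold for Slfn4 (0.707 to 2.15) and 1.69-fold for Tnf (0.763 to 3.82). Irf7 gave 0.916-fold there, from only 2 and 3 UMIs. So Slfn4 and Irf7 were higher in the positive cells of both AVF libraries, and no such difference was detectable in contralateral veins. The lower Tnf was seen in the late library, and whether the libraries differed in Tnf, Slfn4, or Irf7 in this respect was not tested.

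Matrix and platelet transcripts were among the largest ratios and moved with other cells. In early AVFs Mgp, Eln, and Postn, genes of smooth muscle cells and fibroblasts, were 26.4-fold, 22.1-fold, and 21.9-fold higher in neutrophils than in contralateral veins, and 13.0-fold, 7.95-fold, and 45.0-fold higher in T cells. Spp1 (osteopontin) was 15.2-fold higher in neutrophils and 174-fold higher in T cells. The platelet genes Ppbp and Nrgn were 29.5-fold and 29.8-fold lower in neutrophils, with T cell ratios of 0.0652 and 0.282, and Alas2, of red cell precursors, was 15.8-fold lower with a T cell ratio of 0.0309. T cells showed the same directions for all of these genes. Of the late-to-early ratios, Stfa1 was 26.2-fold lower in late AVF neutrophils (12.7 to 65.5), a stefin gene with near-identical copies, while Gdf10 and Ptx3 were 33.0-fold and 8.38-fold higher, and Ptx3 was 10.6-fold higher in T cells.

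Which cells held the RNA of secreted products was asked next, as the share of a gene's UMIs in early AVFs that lay in neutrophils, which held 4.82% of all UMIs. Retnlg (91.4%), S100a9 (90.0%), and S100a8 (88.7%) were nearly confined to them by the rule, and Ngp, Camp, and Ltf reached 98.9%, 98.4%, and 91.6% through the 2 cells described above. Among genes outside the rule, neutrophils held 86.4% of Stfa2l1 and 77.9% of Il1f9 (76.2 to 79.5%). Lrg1, a glycoprotein that modulates TGF-beta signaling, lay there at 55.3%, and Il1r2, the decoy receptor for interleukin-1, at 53.0%. The collagenase gene Mmp8 was split between neutrophils (48.2%) and other myeloid cells (39.6%), and the gelatinase gene Mmp9 lay at 26.8% and 37.2%. Inflammatory cytokines lay mostly outside neutrophils: other myeloid cells held 50.3% of Il1b and neutrophils 22.4%, and C1q macrophages held 44.6% of Cxcl2, 65.5% of Ccl4, and 53.1% of Tnf, where neutrophils held 20.7%, 7.99%, and 6.79%. Chil3 lay at 60.2% in other myeloid cells and 8.79% in neutrophils, and Hp (haptoglobin) at 68.4% in fibroblasts and 9.99% in neutrophils.

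**Figure D4:**
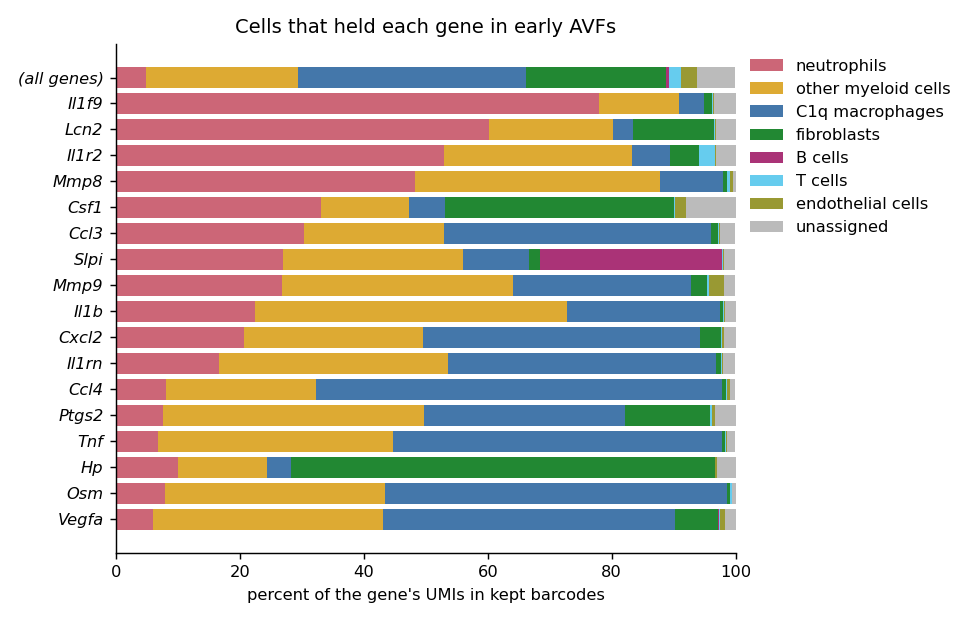
Percent of each gene's UMIs in the early AVF library (x axis, 0 to 100%) by the class of cell that held them, for all genes and 17 genes. Neutrophils hold 4.82% of all UMIs, over 70% of Il1f9, and under 30% of Il1b, Cxcl2, Ccl4, and Tnf.

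Bulk RNA sequencing of other vessels asked whether neutrophil genes followed the same course with replicates. Libraries held 20254173 to 67457501 counts, levels are given as CPM of the tested genes' library sizes scaled by TMM (trimmed mean of M values, edgeR), and edgeR's quasi-likelihood test over 12673 genes called a gene at an adjusted *p* under 0.01 with at least a 2-fold change. In whole vessels, fewer cells of a type and less RNA per cell cannot be told apart. Of 39 core neutrophil genes (rule, identity, and granule genes), 29 were abundant enough to be tested. In early AVFs 15 of 29 rose and none fell, where 6.17% of all genes rose and 6.45% fell, and the median log2 fold change was 3.50 against -0.01. In mid AVFs 7 rose and 1 fell (2.74% and 3.31% of all genes), with a median of 1.23, and in late AVFs 6 rose and 2 fell (2.49% and 2.85%), with a median of 0.52. The 3 comparisons share the contralateral veins, so they are not independent. Unadjusted *p* values under 0.05 were found for 22 genes that were higher and 0 that were lower in early AVFs, and no core gene fell there by DESeq2 or by a likelihood ratio test either.

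Cxcr2 and Csf3r, receptor genes of the rule, were called higher in bulk AVFs than in contralateral veins at all 3 times. Cxcr2 had 0 CPM in the lowest and the median contralateral vein and 1.72 in the highest, 12.3 to 74.2 in early AVFs (median 30.8), 8.44 to 15.8 in mid AVFs (15.2), and 5.66 to 11.4 in late AVFs (6.96). Every AVF was above every contralateral vein, and every late AVF was below every early AVF. Its log2 fold changes over contralateral veins were 6.74 (SE 1.03, adjusted *p* = 2.44e-05), 5.27 (0.99, 0.000642), and 4.43 (0.96, 0.00297), while late against early gave -2.31 (adjusted *p* = 0.179) and was not called. Csf3r had 0.0392 to 2.67 CPM in contralateral veins (median 0.125), 57.0 to 190 in early AVFs (76.8), 38.4 to 66.5 in mid AVFs (51.1), and 19.6 to 64.2 in late AVFs (33.5). Its log2 fold changes were 6.87 (SE 0.76, adjusted *p* = 2.05e-07), 5.97 (0.74, 3.58e-06), and 5.51 (0.73, 9.86e-06), with no overlap at any time.

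By this test S100a8 and S100a9 rose only in early AVFs. S100a8 had 0.0392 to 52.8 CPM in contralateral veins (median 12.9), 75.9 to 2364 in early AVFs (663), 34.9 to 145 in mid AVFs (127), and 34.1 to 77.8 in late AVFs (40.1). Every early AVF was above every contralateral vein, and mid and late AVFs overlapped with them. On the log2 scale the differences were 5.86 (SE 1.04, adjusted *p* = 0.000153), 2.64 (adjusted *p* = 0.0666), and 1.69 (0.269), and late against early gave -4.17 (SE 1.11, adjusted *p* = 0.0194), past 0.05 but not past the threshold used here. S100a9 rose by 5.42 (SE 1.04, adjusted *p* = 0.000364) in early AVFs. Retnlg rose by 3.88 (SE 1.05, adjusted *p* = 0.00796), but its vessels overlapped, at 0 to 27.1 CPM in controls and 8.08 to 279 in early AVFs, and the call was lost in 13 of the 25 fits that left out 1 vessel each. G0s2, a lipase inhibitor gene of the rule, did not pass (log2 fold change 0.43, adjusted *p* = 0.653), with a control median of 80.5 CPM and an early median of 80.0.

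Some other genes that marked neutrophils also rose. Of 14 identity genes tested, 4 rose in early AVFs, 2 at mid and 1 at late stages, where 6.17%, 2.74%, and 2.49% of all genes rose. Mxd1 (log2 fold change 1.30, adjusted *p* = 0.0481), Mmp9 (1.25, 0.0742), Pglyrp1 (0.90, 0.572), and Hdc (0.68, 0.489) were not called in early AVFs. Mcemp1, a membrane protein of granulocytes and mast cells, had 0 to 1.52 CPM in contralateral veins (median 0) and 13.6 to 59.8 in early AVFs (29.9). It rose by 6.92 (SE 1.11, adjusted *p* = 4.65e-05), 5.03 (adjusted *p* = 0.00179), and 4.76 (0.00316) in early, mid, and late AVFs on the log2 scale, with no overlap. Slpi had 0 to 8.80 CPM in contralateral veins (median 0.0907), 21.3 to 392 in early AVFs (93.2), 11.5 to 82.3 in mid AVFs (33.1), and 15.5 to 40.6 in late AVFs (19.5). It was above every contralateral vein at each time and was called in early (6.14, SE 1.08, adjusted *p* = 0.000140) and mid AVFs (4.30, 0.00577), while late AVFs gave 3.59 (adjusted *p* = 0.0190). The mid call of Slpi was lost in 4 of 25 fits without 1 vessel. Il1f9, of which neutrophils held most early single-cell UMIs, had 0 to 0.356 CPM in contralateral veins (median 0), 7.49 to 56.4 in early AVFs (29.6), 11.2 to 38.3 in mid AVFs (28.6), and 4.82 to 17.0 in late AVFs (8.87). Its log2 fold changes were 8.80 (SE 1.00, adjusted *p* = 3.07e-07), 8.59 (1.53e-06), and 7.18 (1.03e-05).

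Granule genes in bulk also rose in early AVFs. Mmp8 had 0 to 0.712 CPM in contralateral veins (median 0), 6.11 to 109 in early AVFs (51.5), 2.05 to 7.63 in mid AVFs (3.59), and 0.657 to 6.41 in late AVFs (1.5). Its log2 fold changes were 8.84 (SE 1.25, adjusted *p* = 8.44e-06), 5.35 (0.00179), and 4.49 (0.00697), and the late call was lost in 9 of 25 fits without 1 vessel. Contralateral vein 27 was the only control with Mmp8 counts, and without it the early log2 fold change was 13.48. The sizes given for Cxcr2, Mcemp1, and Il1f9, whose control medians were also 0, likewise rest on few control counts. Ngp had counts in few contralateral veins (0 to 0.0690 CPM, median 0), 0.434 to 42.1 CPM in early AVFs (6.89), 0.387 to 7.49 in mid AVFs (0.668), and 0.0547 to 4.21 in late AVFs (2.16). It was called at every time, and reached 9.63 on the log2 scale in early AVFs (SE 1.49, adjusted *p* = 2.83e-05), a size that depends on the prior count because most controls were at 0. Camp, too low to be tested, had 0 to 2.18 CPM in contralateral veins (median 0) and 0.0394 to 12.1 in early AVFs (3.14). Ltf (log2 fold change 3.34, adjusted *p* = 0.139) and Lcn2 (4.03, SE 1.13, adjusted *p* = 0.0106) did not pass, although the Lcn2 medians of controls and early AVFs were 2.73 and 177 CPM. Without contralateral vein 27 Ltf gave 8.87 and was called, and Lcn2 was called in 4 of 25 fits without 1 vessel, with 5.23 as the highest value, without contralateral vein 35. Chil3 rose by 8.0 (SE 1.34, adjusted *p* = 7.93e-05) in early AVFs and was lower in every late AVF than in every early one, a difference of -6.45 (SE 1.46, adjusted *p* = 0.00652), a call lost in 9 of 25 fits without 1 vessel. Most Chil3 UMIs of the early single-cell library lay outside neutrophils.

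**Figure D5:**
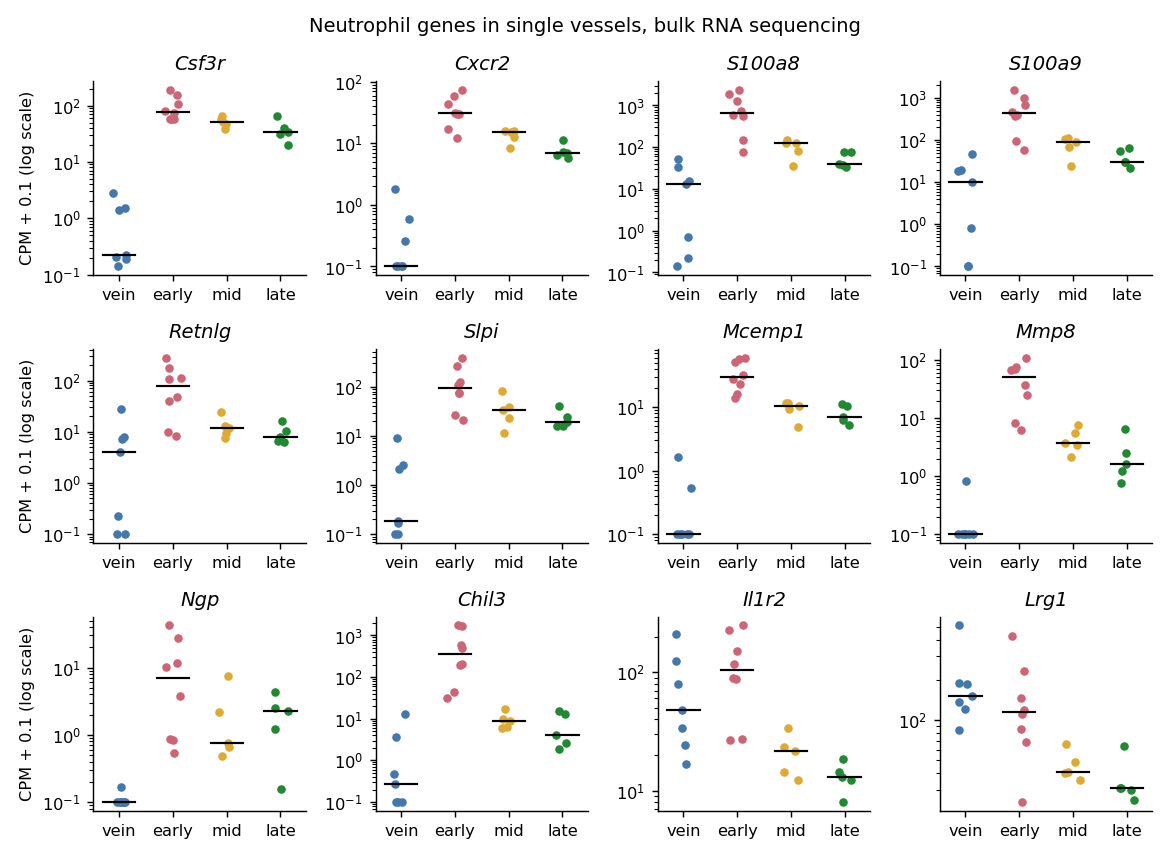
Bulk levels of 12 neutrophil genes by group, with 7 contralateral veins, 8 early AVFs, 5 mid AVFs, and 5 late AVFs (points, 1 per vessel, CPM + 0.1 on a log axis; lines, medians). Csf3r, Cxcr2, Slpi, and Mcemp1 lie above every contralateral vein at all 3 times, while Il1r2 and Lrg1 are not called higher at any time and have their lowest medians in late AVFs.

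Il1r2 and Lrg1 were lower in late AVFs than in contralateral veins. Lrg1 had 83.6 to 511 CPM in contralateral veins (median 151), 24.2 to 427 in early AVFs (114), 35.5 to 66.1 in mid AVFs (40.7), and 25.1 to 63.3 in late AVFs (30.8). Every mid and late AVF was below every contralateral vein, at -2.09 on the log2 scale (SE 0.52, adjusted *p* = 0.00765) and -2.45 (0.53, 0.00277). The mid call was lost in 9 of 25 fits without 1 vessel, and without late vessel 16 or 24 the late call was lost. Il1r2 had 16.7 to 210 CPM in contralateral veins (median 47.7), 26.9 to 248 in early AVFs (104), and 7.91 to 18.3 in late AVFs (13.0). It was lower in late AVFs than in contralateral veins (-2.54, SE 0.61, adjusted *p* = 0.00652), where the ranges overlapped, and than in early AVFs (-3.21, SE 0.63, adjusted *p* = 0.00354), where they did not; these calls were lost in 8 and 5 of 25 fits without 1 vessel. Between AVFs, Il1r2, Chil3, and Msrb1, a methionine sulfoxide reductase, were the 3 core genes lower in late than in early AVFs (2.28% of all genes), and none was higher (0.726%). The Msrb1 call was lost in 8 of 25 fits without 1 vessel. From early to mid AVFs no core gene was called by edgeR, where 0.00789% of all genes rose and none fell; 17 core genes were lower at an unadjusted *p* under 0.05 and DESeq2 called 7 lower.

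Effector genes that neutrophils share with other myeloid cells also rose in bulk. Of 16 cytokine genes tested, 13 rose in early AVFs, then 10 at mid and 9 at late stages, where 6.17%, 2.74%, and 2.49% of all genes rose, and the early median log2 fold change was 5.25. The late calls of Tnf and Cxcl1 were lost in 22 and 19 of 25 fits without 1 vessel, and the mid call of Osm in 7. Il1b had 0 to 43.4 CPM in contralateral veins (median 0.313) and 40.1 to 213 in early AVFs (114), which gave 4.05 on the log2 scale (SE 1.07, adjusted *p* = 0.00651), and this call was lost in 7 of 25 fits without 1 vessel. Cxcl2 rose by 7.68 (SE 1.16, adjusted *p* = 1.98e-05), and the ranges of early AVFs and contralateral veins did not overlap. Of 18 receptor genes 9 rose in early AVFs, then 3 at mid and 1 at late stages, the early 9 including Fpr1, the receptor for bacterial formyl peptides (at most 0.475 CPM in any contralateral vein and at least 28.5 in any early AVF, log2 fold change 9.47, SE 0.97, adjusted *p* = 6.61e-08). Of 6 genes of the NADPH oxidase, the enzyme of the oxidative burst, 5 rose in early AVFs and 1, Ncf4, in mid AVFs, a call lost in 19 of 25 fits without 1 vessel, and none did in late AVFs. Ncf4, a cytosolic subunit, had at most 12.4 CPM in any contralateral vein and at least 59.5 in any early AVF (4.01, SE 0.74, adjusted *p* = 0.000222). Macrophage markers (6 of 8) and monocyte markers (4 of 6) also rose in early AVFs, and their part in these results was not tested.

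Interferon genes did not follow in bulk the order seen in the single-cell neutrophils. Of 14 tested, 3 rose in early AVFs (6.17% of all genes) and none in mid or late AVFs (2.74% and 2.49%). Lower in late than in early AVFs were 2, Ifitm1 and Ifitm3 (2.28% of all genes), calls lost in 4 and 6 of 25 fits without 1 vessel. Isg15 had 0.274 to 35.6 CPM in contralateral veins (median 18.4), 13.7 to 73.5 in early AVFs (27.9), and 12.9 to 33.4 in late AVFs (22), with a log2 fold change of -0.61 from early to late AVFs (SE 0.63, adjusted *p* = 0.838). Slfn4, of which neutrophils held 54.8% of early single-cell UMIs, had 0 to 15.7 CPM in contralateral veins (median 0), 36.8 to 463 in early AVFs (85.4), 19.8 to 64.1 in mid AVFs (26.4), and 6.42 to 20 in late AVFs (13.8). It rose in early AVFs (5.83, SE 1.28, adjusted *p* = 0.00141), and every late AVF was below every early AVF, although that difference did not pass (-3.34, SE 1.30, adjusted *p* = 0.146).

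The bulk groups were of mixed sex, with 5 female and 2 male contralateral veins and 3 female and 5 male early AVFs. The early effect was compared between the sexes with an interaction term: none of the 29 core genes differed at an adjusted *p* under 0.05 by edgeR (smallest 0.148), where 57 of all 12673 genes did. At an unadjusted *p* under 0.05 by the same test, 9 of the 29 core genes and 1090 of the 12673 genes differed. With only 2 male contralateral veins this test had little precision.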

How the data were processed

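For 25 single vessels the authors deposited raw counts (whole numbers, not normalized) of 56980 genes. For 3 pooled single-cell libraries the authors deposited UMI counts of 32285 genes from Cell Ranger 6.0.2 (per the file headers). The submitters' processing notes name STAR and the mouse build mm10, while some bulk gene identifiers are newer than that build, so no bulk coordinates were used. Bulk identifiers were named from the single-cell gene lists (32210) or else from the reference annotation (19962), and 4808 stayed without a symbol. Groups and sexes came from the labels.

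The neutrophil rule, the gene lists, and the classes of other cells were chosen with earlier results of these data known. Single-cell levels are UMIs summed over neutrophils and divided by their total UMIs (CPM), with exact Poisson intervals. Ratios have exact intervals conditional on the summed counts, and shares have exact binomial (Clopper-Pearson) intervals, all at 95%, computed with Python 3.11.15 and scipy 1.17.1. A count of 0 was taken as 3 in ratios. Cells were thinned to 500 UMIs for shares of positive cells. Doublets were called with Scrublet in scanpy 1.11.5 and kept.

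Bulk counts were tested with edgeR 4.0.16 in R 4.3.3 (TMM scaling, quasi-likelihood F test, 1 fit of 4 groups over all libraries, common dispersion 0.710) for 12673 genes whose DESeq2-normalized counts averaged at least 100. Adjusted *p* values are Benjamini-Hochberg over all genes tested. The labels do not tie vessels to mice, so *p* values measure the spread between these vessels. Genes were named from the fixed lists, from the 15 genes with the highest smallest ratio of neutrophils to other barcodes over the 3 libraries, and from the 10 largest ratios each way between libraries with at least 20 UMIs and 100 CPM in the higher one. Mitochondrial, ribosomal, hemoglobin, and unnamed predicted genes were left out of the last 2 rules. Scripts were tested on simulated data. Alternatives were other limits of the rule, thinning to 500 or 1000 UMIs, other scalings, DESeq2 1.42.0, a likelihood ratio test, other filters, sex as a covariate, female mice alone, and each vessel left out in turn. Leaving out neutrophils over 3 times the median UMI count, or the cell with most UMIs of a gene, was chosen after the data were seen. Fold changes and other comparisons made by the authors, and human data, were not used here. A result on a withheld item is not reported here.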

Additional observations from a re-analysis of the deposited data

Results flagged for a closer look

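In bulk, a vessel far from the others of its group was looked for in 130 sets of 33 core neutrophil genes and 4 groups by Dixon's ratio on log2(CPM + 1), and 14 were found. Where a single vessel held counts, as for Ngp and Cd177 in contralateral veins, any count gives the largest ratio. The number found was therefore not set against a rate by chance. Contralateral vein 633 was the highest of its group for 5 genes: Cxcr2 at 1.72 CPM, Trem1 at 5.62, Mcemp1 at 1.52, Ngp at 0.0690, and Adam8, a metalloprotease of granules, at 9.83. Contralateral vein 27 was highest for the granule genes Ltf at 5.58, Camp at 2.18, and Mmp8 at 0.712. Single genes set apart contralateral vein 28 (G0s2, 0.625 CPM, the lowest), vein 35 (Cd177, 0.0701), and vein 632 (Asprv1, 1.92). Among AVFs, mid vessel 9 was highest for Ltf at 43.1 CPM, mid vessel 13 lowest for Mcemp1 at 4.79, and late vessel 17 highest for Lrg1 at 63.3. Leaving out each of the 25 vessels in turn ended no call of Cxcr2, Csf3r, Mcemp1, or Adam8. Ngp kept its calls in the 23 such fits in which it was tested.

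The early AVF effect differed between the sexes at an adjusted *p* under 0.05 (edgeR interaction term) for 2 of 149 listed genes. For Hcar2, a receptor for hydroxybutyrate and niacin on neutrophils and other myeloid cells, the male effect minus the female effect was -10.63 on the log2 scale (adjusted *p* = 0.0167). Its 5 female contralateral veins were all at 0 CPM and its 2 male ones were at 0 and 8.62, so the size depends on the prior count. For Zfp36 the difference was -3.10 (adjusted *p* = 0.0343), with 20.4 to 120 CPM in female contralateral veins, 249 and 455 in the male ones, 103 to 136 in female early AVFs, and 55.7 to 117 in male ones.

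In the early AVF library 32 barcodes met the marker conditions for neutrophils but were outside the quality filter, 31 of them with over 10% mitochondrial UMIs and 1 with over 6000 genes, against 0 in contralateral veins and 2 in late AVFs.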

How the results depend on the processing

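The order of neutrophil shares, early AVFs above late AVFs above contralateral veins, held under every limit tried, while the shares moved. Contralateral veins gave 0.764% with at most 5% mitochondrial UMIs, 0.760% with at least 500 genes, and 1.93% of leukocyte barcodes. Early AVFs gave 10.5% with S100 at least 3% and with 5 marker UMIs, 14.2% and 13.8% with those mitochondrial and gene limits, and 18.8% of leukocytes, and late AVFs gave 2.35% with S100 at least 3% and 6.21% of leukocytes. Over leukocytes the ratios were 9.71 (early to contralateral), 3.22 (late to contralateral), and 0.331 (late to early). Listed genes at least 2-fold higher in early AVFs than in contralateral veins numbered 35 without the cell with most UMIs of the gene, and those lower in late than in early AVFs numbered 5 by the mean of each cell's share and 2 among cells of up to 3 times the median UMIs. Those cells also reversed the late-to-early ratios of Camp (1.63) and Ngp (1.31), since the 2 granule-rich cells were left out, and that of Mmp12 (4.22; 3.4 with S100 at least 3%), while thinning to 500 UMIs reversed Pf4 in early AVFs against contralateral veins (1.01); for Mmp12 and Pf4 the cause was not tested. Among other single-gene ratios 1012 values stayed within counting error and 279 moved beyond it. In bulk, filterByExpr or a minimum of 1 count, which test more genes, called 23, 12, and 11 core genes higher in early, mid, and late AVFs, and female mice alone, with fewer vessels, called 6, 2, and 2. Core genes lower in mid AVFs than in contralateral veins numbered 2 at an adjusted *p* under 0.05, 2 by DESeq2, and 0 in female mice, and in late AVFs 0 in female mice. Lower in mid than in early AVFs were 4 at an adjusted *p* under 0.05, 7 by DESeq2, and 3 by the likelihood ratio test, and lower in late than in early AVFs were 11, 13, and 9, with 1 under filterByExpr and 0 in female mice. Without 1 vessel each, counts ranged from 13 to 16 (early, higher), 6 to 8 and 0 to 1 (mid, higher and lower), 4 to 7 and 0 to 2 (late), 0 to 3 (mid against early, lower), and 0 to 4 (late against early, lower). No paired analysis was possible because vessel numbers are not shared between groups. Single-cell ratios to contralateral veins rested on only 34 neutrophils of that library, and all single-cell ratios on 1 pooled library a condition.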
